A study of Mus musculus with 11 samples.

Results

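Dietary fat reaches the blood by way of the enterocytes of the small intestine. Their transcripts were examined here for 10 genes of lipid absorption and chylomicron formation: Cd36, Npc1l1, Fabp1, Fabp2, Mogat2, Mttp, Apob, Apoa1, Apoa4 and Apoc3. The genes were chosen by symbol from a table of 11366 genes, in which all 10 were found. The study profiled sorted epithelial cells from the small intestine of wild-type mice by RNA-seq, in 11 libraries. SFB mice ate standard chow and were colonized with SFB, taken here to mean segmented filamentous bacteria, commensals that attach to the ileal epithelium (n = 4). NFF mice ate a diet low in fermentable fiber with no treatment (n = 4), and Control mice ate standard chow with no treatment (n = 3). All groups share the WT genotype and the sort for live cells with EpCAM, an epithelial adhesion molecule, and without CD45, CD31 and CD44, which mark leukocytes, endothelium and crypt cells. The labels used here do not give the age of the mice, the segment of the small intestine or whether each library is a mouse of its own. If they are not, the p-values below reflect technical spread.

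Fat digested in the gut lumen enters enterocytes as fatty acids, monoacylglycerol and cholesterol, is rebuilt into triglyceride in the endoplasmic reticulum and leaves the cell on chylomicrons, lipoprotein particles built on apolipoprotein B. The genes of this route are known to be most active on the villus in the proximal small intestine, above all in the jejunum, and several of them are known to increase toward the villus tip. The levels below are in RPKM (reads scaled by gene length and library total), a per-length scale that allows levels of different genes to be set side by side.

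The set held 3 genes that varied by 37.7-fold or more between libraries, Fabp1, Apoa4 and Apoc3, while close relatives or neighbours of them varied less. Fabp1 and Fabp2 encode related fatty acid binding proteins on chromosomes 6 and 3, and Apoa4 and Apoa1 encode apolipoproteins from 1 gene cluster on chromosome 9. The 250 bases before the RefSeq start of these 4 genes are shown because each pair holds a gene with a wider and a gene with a narrower spread. They are reference sequence of GRCm38.p6 from RefSeq, written 5′ to 3′ on the gene's strand. Capitals mark matches, on either strand, to 5 patterns. TATAAA is a form of the promoter box near the start of many genes, and GATAA is the core bound by the Gata4 family. GTTAAT is part of the HNF1 site, and CAAAGNNCA, where N is any base, is a pattern of HNF4-type sites. AGGTCA is a core of nuclear receptor sites and can overlap the HNF4-type pattern.
Fabp1, chr6:71199629-71199878, plus strand: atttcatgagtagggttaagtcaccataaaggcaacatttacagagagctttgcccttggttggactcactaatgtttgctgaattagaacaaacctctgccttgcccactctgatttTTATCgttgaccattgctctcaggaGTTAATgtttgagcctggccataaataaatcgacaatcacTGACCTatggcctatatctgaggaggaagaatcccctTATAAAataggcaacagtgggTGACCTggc
Fabp2, chr3:122894822-122895071, plus strand: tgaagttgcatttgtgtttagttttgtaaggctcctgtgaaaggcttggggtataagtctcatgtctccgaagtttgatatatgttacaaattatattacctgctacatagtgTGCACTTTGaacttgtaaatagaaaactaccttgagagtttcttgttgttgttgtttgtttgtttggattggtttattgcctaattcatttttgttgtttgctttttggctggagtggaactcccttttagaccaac
Apoa4, chr9:46240594-46240843, plus strand: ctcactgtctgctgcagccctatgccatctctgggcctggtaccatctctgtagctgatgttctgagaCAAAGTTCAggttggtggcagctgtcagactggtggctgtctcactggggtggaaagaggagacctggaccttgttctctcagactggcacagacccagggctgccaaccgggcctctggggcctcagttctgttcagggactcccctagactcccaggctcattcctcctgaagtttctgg
Apoa1, chr9:46228380-46228629, plus strand: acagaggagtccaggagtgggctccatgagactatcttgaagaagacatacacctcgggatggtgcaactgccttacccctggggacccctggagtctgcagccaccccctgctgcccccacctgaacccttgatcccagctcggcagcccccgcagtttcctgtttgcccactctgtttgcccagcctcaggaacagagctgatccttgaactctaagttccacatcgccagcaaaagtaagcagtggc

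The window of Fabp1 held 5 matches, with TATAAA beginning 30 bases, GTTAAT 107 bases and GATAA 132 bases before the start, and AGGTCA at both 67 and 9 bases. The windows of Fabp2 and Apoa4 each held 1 match, to CAAAGNNCA, beginning 137 and 182 bases before the start, and that of Apoa1 held none of the 5 patterns. Among 32851 windows of the same length over all RefSeq genes, 12.4% held TATAAA, 22.6% GATAA, 6.43% GTTAAT, 5.49% CAAAGNNCA and 14.0% AGGTCA. RefSeq windows were matched for 8 of the 10 genes. Distances are from the RefSeq start. The GENCODE M21 annotation begins Fabp1 at 71199827, Apoa4 at 46240696 and Apoa1 at 46228580, before their RefSeq starts. The last part of these 3 windows therefore lies within the gene as given by GENCODE. A match of letters is a description and not a binding site.

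Control 2 and SFB 4 stood apart before any comparison was made, Control 2 at the high end and SFB 4 at the low end. The 10 genes together summed to 6339, 6497, 5202 and 1746 RPKM in SFB 1 to 4, to 6735, 5378, 5905 and 6836 RPKM in NFF 1 to 4, and to 10993, 3385 and 4932 RPKM in Control 2, 4 and 5. This was 0.736% of the RPKM sum of SFB 4, 3.63% of that of Control 2 and 1.16% to 2.68% of that of the other libraries. SFB 4 held the lowest value of all 10 genes, and Control 2 the highest value of 5 of them. In bulk samples fewer cells of a type and less RNA per cell cannot be told apart. Leaving out Control 2 or SFB 4 moved most fold changes of the set, and values without them are given beside the main ones below.

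**Figure D1:**
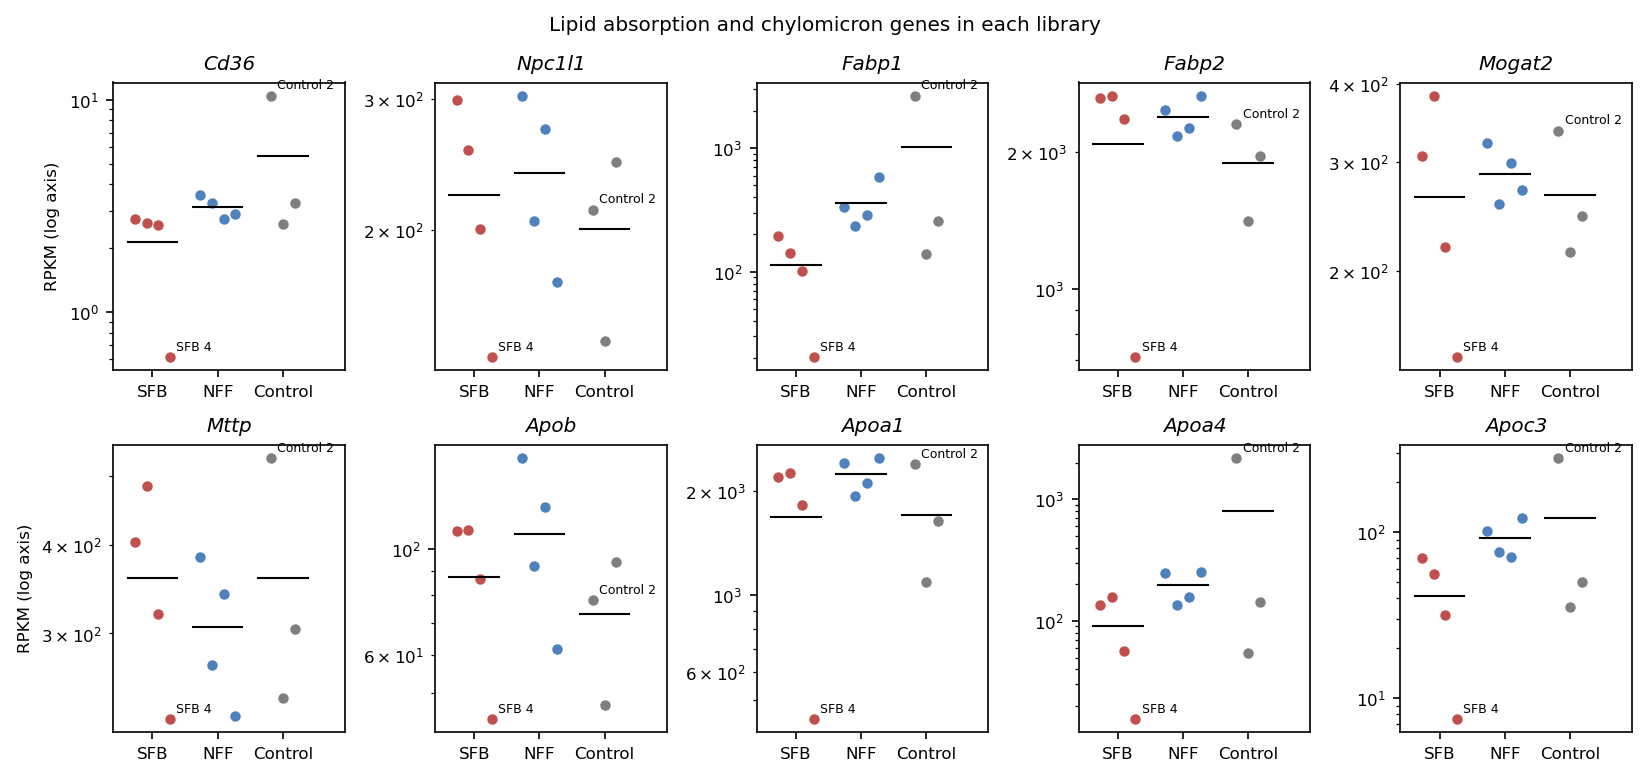
RPKM of each of the 10 genes (vertical log axis) in the 4 SFB, 4 NFF and 3 Control libraries (points), with the arithmetic mean of each group as a line. SFB 4 is the lowest point in every panel, and Control 2 is the highest for Cd36, Fabp1, Mttp, Apoa4 and Apoc3.

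None of the 10 genes differed between groups by the test across all genes, and for most of them the wide spread between libraries leaves changes of either sign within the 95% interval. Each of the 10 was at 1 RPKM or more in at least 3 libraries and was tested by limma with Benjamini-Hochberg adjustment over 10482 genes. In SFB against NFF 0 of 10 were called, that is, had an adjusted p under 0.05 (smallest adjusted p = 0.182), where 7.34% of all tested genes were. In SFB against Control 0 of 10 were called (smallest adjusted p = 0.335), where 0.2% of all tested genes were, and in NFF against Control 0 of 10 (smallest adjusted p = 0.896), where 0% were. At an unadjusted p under 0.05 the counts were 1, 2 and 0 of 10 in these 3 comparisons, against 25.7%, 12.1% and 4.82% of all tested genes. The 3 comparisons share libraries, so their values are set side by side and are not independent of each other. SFB and NFF mice differed in both diet and colonization, so these cannot be told apart in SFB against NFF.

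**Figure D2:**
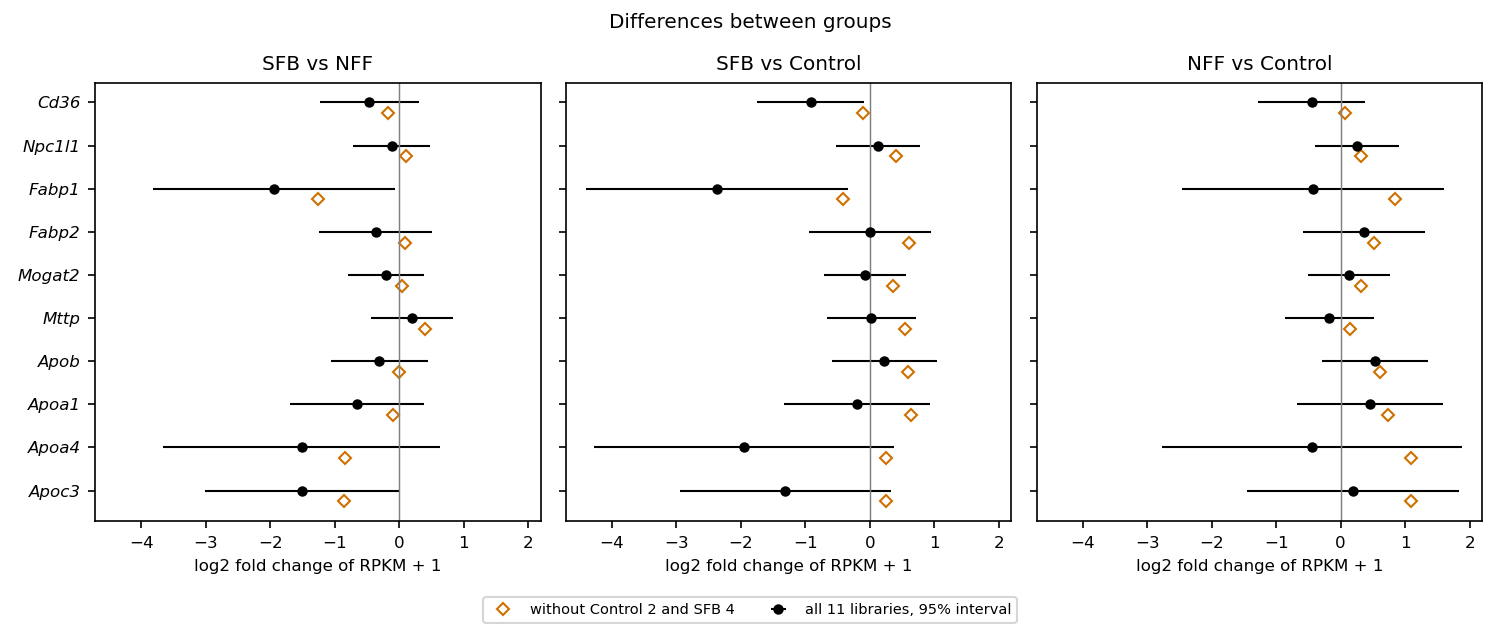
Log2 fold change of RPKM + 1 (horizontal axis) of the 10 genes in SFB against NFF, SFB against Control and NFF against Control, with 95% intervals from limma (black) and the estimate without Control 2 and SFB 4 (open diamonds). The widest intervals belong to Apoa4, Fabp1 and Apoc3, and their diamonds lie to the right of the black points in all 3 panels.

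Uptake from the lumen was represented by a fatty acid receptor and a cholesterol transporter. Cd36 encodes a membrane glycoprotein that binds long-chain fatty acids and, on chromosome 5 (17781690 to 17888801, GRCm38, minus strand), was the least abundant gene of the set. It stood at 2.75, 2.62, 2.56 and 0.615 RPKM in SFB 1 to 4, at 3.57, 3.26, 2.73 and 2.89 RPKM in NFF 1 to 4, and at 10.4, 2.59 and 3.28 RPKM in Control 2, 4 and 5. Without Control 2 and SFB 4 the remaining 9 libraries lay within 1.4-fold of each other. The log2 fold change on the log2(RPKM + 1) scale, which understates changes near 1 RPKM, was -0.91 ± 0.38 (SE) in SFB against Control (limma adjusted p = 0.364) and -0.11 without Control 2 and SFB 4 (limma adjusted p = 0.698). Cd36 is also made by endothelial cells, macrophages and adipocytes. Of 9 endothelial and adipocyte markers 3 could be measured, with summed levels of 2.94 to 4.14 RPKM in SFB, 3.15 to 4.54 RPKM in NFF and 2.71 to 2.90 RPKM in Control. The 3 measured were Tek, Lyve1 and Prox1, with no adipocyte marker among them. Lyve1 stood at 1.89 to 2.40 RPKM in SFB and 0.998 to 1.53 RPKM in NFF, and was called (limma adjusted p = 0.040). Prox1 went the other way, uncalled, at 0.450 to 1.37 RPKM in SFB and 1.29 to 2.47 RPKM in NFF. Of 13 leukocyte markers 3 could be measured, and their sums were 7.46 to 26.1 RPKM in SFB, 22.3 to 33.3 RPKM in NFF and 26.8 to 53.1 RPKM in Control. The sum was highest in Control 2 through Lyz2, a lysozyme gene of macrophages, at 50.6 RPKM. Ptprc and Itgam, the others, were not raised there, at 0.757 and 1.79 RPKM, against 0.751 and 5.19 RPKM in Control 4. In Control 5 they were at 2.25 and 3.94 RPKM. Itgam went against the sum between groups. It stood at 5.5 to 12.7 RPKM in SFB, 1.12 to 3.48 RPKM in NFF and 1.79 to 5.19 RPKM in Control. It was called higher in SFB against NFF (limma adjusted p = 0.019), where 7.34% of all tested genes were called. Ptprc and Lyz2 were lower in SFB in that comparison and were not called. Lyz2 was lowest in SFB 2, at 1.34 RPKM, as was the Paneth marker Lyz1, at 28.1 RPKM. The part of endothelial cells, macrophages and adipocytes in the level of Cd36 was not tested.

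Npc1l1, the intestinal sterol transporter that is the target of the drug ezetimibe, was far more abundant and showed no such extremes. On chromosome 11 (6211013 to 6230143, minus strand), it stood at 299, 257, 201 and 135 RPKM in SFB 1 to 4, at 303, 206, 273 and 170 RPKM in NFF 1 to 4, and at 213, 142 and 247 RPKM in Control 2, 4 and 5. All 3 groups overlapped, and the highest library exceeded the lowest 2.25-fold, the smallest ratio in the set. The log2 fold changes were -0.12 in SFB against NFF, 0.13 in SFB against Control and 0.25 in NFF against Control, with a 95% interval of -0.52 to 0.78 for SFB against Control (limma adjusted p = 0.916). Without SFB 4 the first 2 values were 0.099 and 0.35.

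The fatty acid binding proteins carry fatty acids through the cytosol, and the 2 genes behaved differently. Fabp2, the intestinal form on chromosome 3 (122895072 to 122899506, plus strand), was the most abundant gene of the set on average. It stood at 2626, 2652, 2357 and 711 RPKM in SFB 1 to 4, at 2470, 2166, 2252 and 2659 RPKM in NFF 1 to 4, and at 2298, 1415 and 1955 RPKM in Control 2, 4 and 5. It ranked between 4 and 26 among all genes of every library, and without SFB 4 its SFB libraries lay within the NFF range. Its log2 fold change was -0.36 in SFB against NFF and 0.095 without SFB 4, with neither value called. An antisense gene is annotated within its span, and since the kits named in the labels do not mark strand, reads of the 2 cannot be told apart.

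Fabp1, the liver form that the proximal intestine also makes, lies on chromosome 6 (71199827 to 71205023, plus strand) and varied 130.5-fold between the highest and the lowest library. It stood at 194, 142, 101 and 20.4 RPKM in SFB 1 to 4, at 334, 236, 285 and 581 RPKM in NFF 1 to 4, and at 2665, 139 and 255 RPKM in Control 2, 4 and 5. Every SFB library was below every NFF library, whereas SFB and Control overlapped because Control 4 lay within the SFB range. Its rank among all genes was 2297 in SFB 4 and 11 in Control 2.

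The difference of Fabp1 between SFB and NFF was the largest of the set in that comparison, but it missed the threshold. Means were 114 ± 73.3 RPKM in SFB and 359 ± 153 RPKM in NFF (SD, n = 4 each), and the log2 fold change was -1.94 ± 0.86 (SE; 95% interval -3.82 to -0.06), with a limma adjusted p of 0.182. Fabp1 and Apoc3 were the 2 of 10 genes whose SFB libraries lay wholly below the NFF libraries, where 9.91% of all tested genes did. Without SFB 4 the log2 fold change of Fabp1 was -1.26, and without both Control 2 and SFB 4 it was -1.26 and passed the threshold (limma adjusted p = 0.033), where 12.1% of all tested genes passed. Leaving out both libraries was decided with their values in view. It called none of the 10 genes in SFB against Control or NFF against Control, where 1.76% and 0.423% of all tested genes passed.

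Against Control, Fabp1 depended on a single library. The Control mean was 1019 ± 1426 RPKM (SD, n = 3), and the log2 fold change of SFB against Control was -2.37 ± 0.93 (SE; limma adjusted p = 0.335). It was -1.10 without Control 2 and -0.42 without Control 2 and SFB 4 (limma adjusted p = 0.582). In NFF against Control the value was -0.43 with all libraries and 0.84 without Control 2, a change of sign with neither value called.

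The ratio of Fabp1 to Fabp2 within a library does not depend on how libraries were scaled. It was 0.0739, 0.0535, 0.0427 and 0.0287 in SFB 1 to 4, 0.135, 0.109, 0.127 and 0.218 in NFF 1 to 4, and 1.16, 0.0980 and 0.130 in Control 2, 4 and 5. All 4 SFB libraries were below all 7 other libraries, and NFF overlapped with Control. This ratio was looked at after the values of both genes were known and was not tested.

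**Figure D3:**
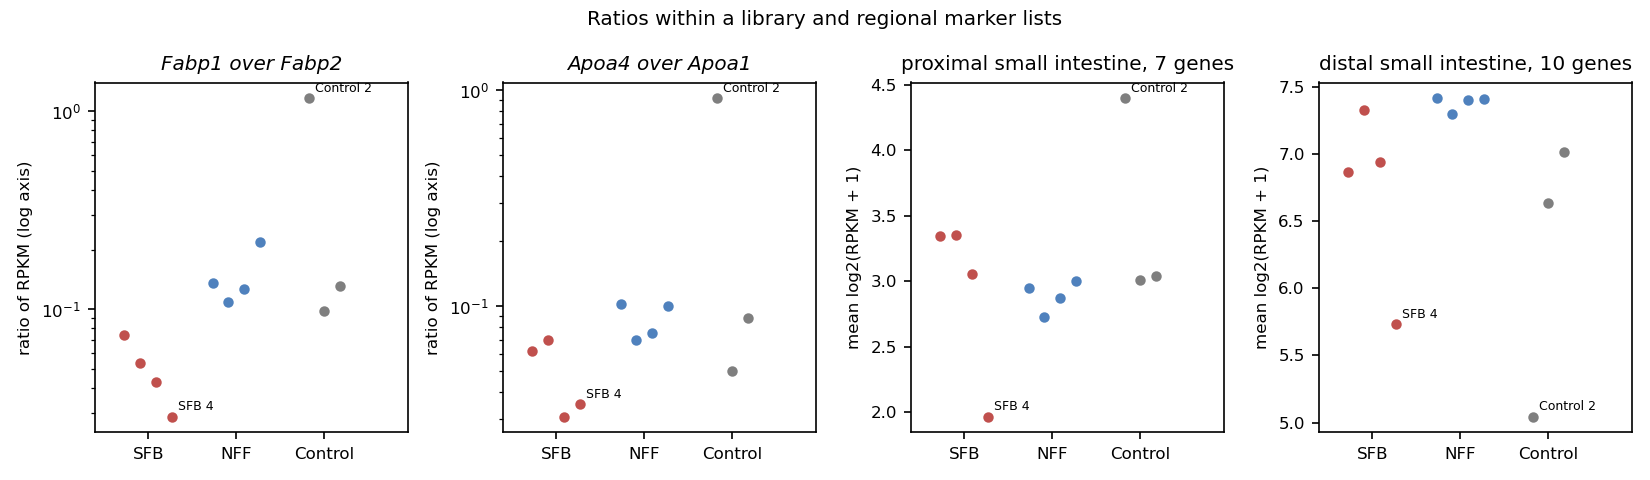
Ratio of RPKM within each library (log axes) for Fabp1 over Fabp2 and Apoa4 over Apoa1, and mean log2(RPKM + 1) of 7 proximal and 10 distal markers of the small intestine, with each point 1 library. The Fabp1 to Fabp2 ratio is at most 0.0739 in SFB and at least 0.0980 elsewhere, and Control 2 stands highest in both ratios and in the proximal list and lowest in the distal list.

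Triglyceride is rebuilt from monoacylglycerol by Mogat2, the enzyme of the first step, whose gene lies on chromosome 7 (99219084 to 99238619, minus strand). It stood at 307, 384, 219 and 146 RPKM in SFB 1 to 4, at 322, 256, 299 and 271 RPKM in NFF 1 to 4, and at 337, 215 and 246 RPKM in Control 2, 4 and 5. The groups overlapped, with means of 264 ± 104 RPKM in SFB, 287 ± 29.2 RPKM in NFF and 266 ± 63.4 RPKM in Control (SD, n = 4, 4 and 3). Its 95% intervals were -0.79 to 0.38 in SFB against NFF, -0.71 to 0.56 in SFB against Control and -0.50 to 0.76 in NFF against Control. Its log2 fold change in SFB against NFF was -0.21 with all libraries and 0.049 without SFB 4. An antisense gene is annotated within this span too.

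Mttp and Apob encode the partners that start a chylomicron, the transfer protein that loads lipid and the large structural apolipoprotein that receives it. Mttp, on chromosome 3 (138089854 to 138144968, minus strand), stood at 404, 485, 320 and 227 RPKM in SFB 1 to 4, at 385, 270, 341 and 229 RPKM in NFF 1 to 4, and at 531, 244 and 305 RPKM in Control 2, 4 and 5. Apob, on chromosome 12 (7977648 to 8016835, plus strand), stood at 109, 110, 86.6 and 44.01 RPKM in SFB 1 to 4, at 155, 92.0, 122 and 61.8 RPKM in NFF 1 to 4, and at 78.2, 47.1 and 94.1 RPKM in Control 2, 4 and 5. Both genes overlapped between all groups, and within NFF both were highest in NFF 1 and lowest in NFF 4.

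Control 2 was the highest library for Mttp but lay between the other Control libraries for Apob. The log2 fold change of Mttp was 0.20 ± 0.29 (SE) in SFB against NFF (limma adjusted p = 0.704), and that of Apob was -0.31 ± 0.35 (limma adjusted p = 0.609). Without SFB 4 the values were 0.40 for Mttp and -0.012 for Apob, again uncalled. Apob had 0.53 ± 0.37 in NFF against Control (limma adjusted p = 0.896), the largest positive value of the 10 genes in that comparison. Mttp overlaps 2 annotated genes on the other strand, of which 1 is in the table.

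The small apolipoproteins of the chylomicron surface come from a cluster of 14880 bases on chromosome 9 (46228580 to 46243459) that holds Apoa1, Apoc3 and Apoa4. Apoa1 (46228580 to 46230466, plus strand), the main protein of high-density lipoprotein, was nearly as abundant as Fabp2. It stood at 2192, 2253, 1827 and 439 RPKM in SFB 1 to 4, at 2413, 1937, 2101 and 2487 RPKM in NFF 1 to 4, and at 2391, 1091 and 1633 RPKM in Control 2, 4 and 5. Apart from SFB 4 the libraries lay within 2.28-fold of each other, and Control 2 was within the NFF range.

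Apoa4 (46240696 to 46243459, plus strand), a lipid-induced apolipoprotein linked to satiety, had the widest range of the set, 141-fold. It stood at 136, 157, 56.5 and 15.5 RPKM in SFB 1 to 4, at 247, 135, 158 and 251 RPKM in NFF 1 to 4, and at 2189, 54.8 and 145 RPKM in Control 2, 4 and 5. Control 2 was far above the next library, NFF 4, and without Control 2 and SFB 4 the range was 4.58-fold. The groups overlapped in all comparisons. Genes annotated on the other strand overlap this span.

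Apoc3 (46232933 to 46235636, minus strand), an inhibitor of lipoprotein lipase, lay between the other 2 in spread. It stood at 69.7, 55.8, 31.6 and 7.44 RPKM in SFB 1 to 4, at 102, 76.3, 71.4 and 123 RPKM in NFF 1 to 4, and at 281, 35.2 and 49.9 RPKM in Control 2, 4 and 5. Every SFB library was below every NFF library, by the margin of 69.7 RPKM in SFB 1 to 71.4 RPKM in NFF 3. Both lower Control libraries lay within the SFB range.

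None of the 3 cluster genes was called. In SFB against NFF the log2 fold changes were -0.66 ± 0.48 (SE) for Apoa1, -1.51 ± 0.98 for Apoa4 and -1.50 ± 0.69 for Apoc3 (limma adjusted p = 0.412, 0.356 and 0.198), and without SFB 4 they were -0.09, -0.84 and -0.85. In SFB against Control they were -0.20, -1.96 and -1.31 with all libraries and 0.64, 0.26 and 0.24 without Control 2 and SFB 4, so that all 3 changed sign. In NFF against Control they were 0.46, -0.44 and 0.19 with all libraries and 0.74, 1.09 and 1.10 without Control 2, again uncalled.

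The ratio of Apoa4 to Apoa1 within a library was 0.0619, 0.0699, 0.0309 and 0.0352 in SFB 1 to 4, 0.102, 0.0698, 0.0754 and 0.101 in NFF 1 to 4, and 0.916, 0.0502 and 0.0885 in Control 2, 4 and 5. SFB 2 and NFF 2 were nearly equal, so these groups touched, and Control 2 was far above all others. The ratio of Apoc3 to Apoa1 was 0.0169 to 0.0318 in SFB, 0.0340 to 0.0494 in NFF and 0.0306 to 0.117 in Control.

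With all libraries, the spread between libraries of 1 group was wider than the median gene's for all 10 genes and widest for Fabp1, Apoa4 and Apoc3. The residual SD on the log2(RPKM + 1) scale was 1.67 for Apoa4, 1.46 for Fabp1 and 1.18 for Apoc3, against a median of 0.22 over all tested genes, and 99.8%, 99.7% and 99.5% of tested genes had a smaller one. Apoa1 had 0.75, Fabp2 0.60, Cd36 0.58 and Apob 0.57. The narrowest were Mttp at 0.46, Npc1l1 at 0.43 and Mogat2 at 0.42, still wider than 88.0% of tested genes. Without Control 2 and SFB 4 the median over all tested genes was 0.18, and the residual SD was 0.68 for Apoa4, 0.54 for Fabp1, 0.50 for Apob and 0.44 for Apoc3, each wider than at least 95.8% of tested genes. In that fit Cd36 had 0.12 and Fabp2 0.17, both below the median, and Apoa1 had 0.23. Control 2 and SFB 4 were left out with the values of these genes in view, so a narrower spread was partly built into that fit. Over all tested genes the root mean square deviation from the group mean was 0.43 in SFB 4, 0.38 in SFB 2 and 0.35 in Control 2.

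**Figure D4:**
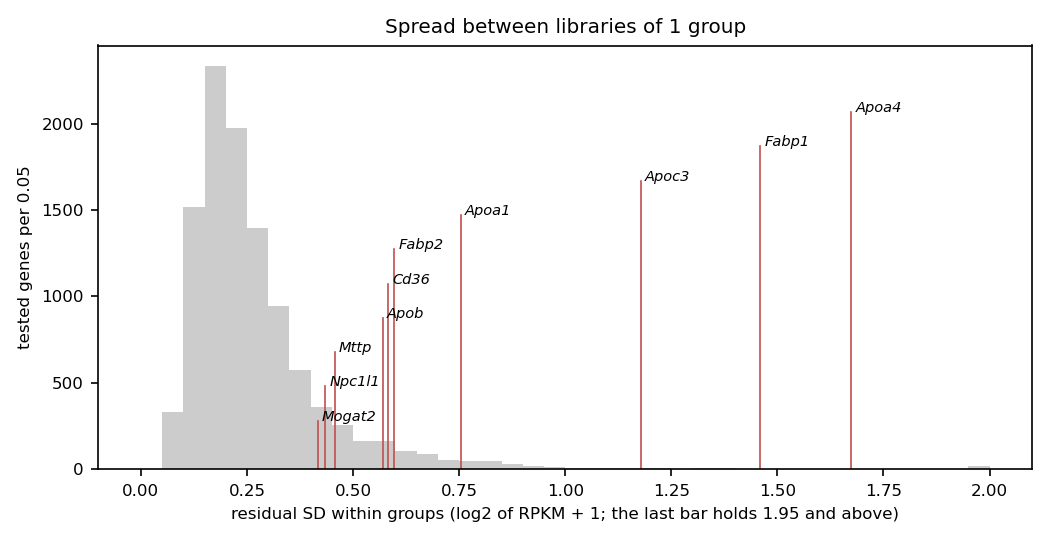
Number of tested genes (vertical axis) by residual SD within groups on the log2(RPKM + 1) scale (horizontal axis, bins of 0.05), with the 10 genes as red lines whose heights carry no value. All 11 libraries enter, and all 10 genes lie to the right of the median of 0.22, with Apoc3, Fabp1 and Apoa4 between 1.18 and 1.67.

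Summed markers of gut region set Control 2 apart, though not every marker did. Of 10 proximal markers 7 could be measured, and their levels summed to 41.4 to 120 RPKM in SFB, 84.9 to 143 RPKM in NFF and 76.5 to 588 RPKM in Control, with 588 in Control 2 and 89.5 in the next Control library. The sums of 10 distal markers were 2667 to 6506 RPKM in SFB, 5473 to 5735 RPKM in NFF and 1125 to 5092 RPKM in Control, lowest in Control 2. Adh6a made up most of the proximal sum of Control 2 (375 RPKM), and Fabp6, an ileal bile acid binding protein gene, most of the distal sums of the other libraries, with 146 RPKM in Control 2 and 3377 and 3773 RPKM in Control 4 and 5. The proximal marker Slc40a1, an iron exporter gene, went the other way, at 2.37 RPKM in Control 2 and 21.8 and 9.57 RPKM in Control 4 and 5. So did the distal marker Muc13, a mucin gene, at 477 RPKM in Control 2 and 392 and 382 RPKM in Control 4 and 5, and the distal markers Clec2h and Amn lay between the other Control libraries. SFB 4 had the lowest proximal sum, 41.4 RPKM, and, after Control 2, the lowest distal sum, 2667 RPKM. Not every marker was low in SFB 4. Slc40a1 was highest there, at 22.9 RPKM, and the distal marker Osr2 was the highest of its group, at 35.3 RPKM. Fgf15, a hormone of the ileum, stood at 0.050 RPKM in Control 2, at 12.0 and 27.9 RPKM in the other Control libraries, at 1.39 to 54.5 RPKM in SFB and at 71.5 to 106 RPKM in NFF. None of the 7 proximal and 10 distal markers in the table was at 0 in any library, and the other 3 proximal markers were not measured here. Their part in the results for Fabp1, Apoa4, Apoc3 and Cd36 was not tested.

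Markers of proliferation moved the other way from the 10 genes in SFB 4 and Control 4. The 10 proliferation genes summed to 88.2, 64.3, 98.2 and 279 RPKM in SFB 1 to 4, to 34.8, 42.1, 52.0 and 33.1 RPKM in NFF 1 to 4, and to 42.1, 139 and 69.2 RPKM in Control 2, 4 and 5. SFB 4 and Control 4, the libraries with the highest sums, had the lowest sums of the lipid absorption genes, and every SFB library was above every NFF library. In SFB against NFF 10 of 10 proliferation genes had values above 0 and 2 rose by limma, where 329 of all 10482 tested genes did. In the same comparison 9 of 10 lipid absorption genes had values below 0 with a median log2 fold change of -0.41. The median over all tested genes was 0.02, and 52.7% of them had values above 0. Without SFB 4 only 6 of the 10 lipid absorption genes had values below 0, with a median of -0.053. All tested genes then had a median of -0.019, with 47.2% above 0, so the 10 genes were near that share. In that fit 10 of 10 proliferation genes stayed above 0 and 2 rose by limma, where 318 of all 10439 tested genes did. Villus tip genes summed to 279 to 451 RPKM in SFB, with 279 in SFB 4, to 425 to 731 RPKM in NFF and to 358 to 851 RPKM in Control, with 851 in Control 2. Fos, Junb and Ada made up most of the sum of Control 2, at 256, 217 and 180 RPKM. Klf4, Slc17a4, Cdkn1a and Pmp22 in Control 2 lay between the other Control libraries. In SFB 4 Egfr was the highest of its group, at 3.38 RPKM, and Fos and Slc28a2 lay within the range of the other SFB libraries. In SFB against NFF 8 of 10 villus tip genes had values below 0 and 2 above. By limma 2 of the 10 were called lower, where 4.2% of all tested genes were. Slc17a4 stood at 7.24 to 10.95 RPKM in SFB and 25.2 to 28.0 RPKM in NFF (limma adjusted p = 0.00077). Nt5e stood at 0.138 to 1.38 RPKM in SFB and 3.35 to 10.7 RPKM in NFF (limma adjusted p = 0.024). The part of proliferation and villus tip genes in these results was not tested.

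Other lists described the sort. The 7 epithelial markers summed to 4700 to 6511 RPKM in SFB, 5687 to 6226 RPKM in NFF and 5348 to 6093 RPKM in Control. Among them Krt18 stood at 316 to 427 RPKM in SFB, 575 to 1157 RPKM in NFF and 544 to 875 RPKM in Control. It was called lower in SFB against NFF (limma adjusted p = 0.028), and the other 6 were not called. Tuft markers summed to 45.6 to 104 RPKM in SFB, 209 to 333 RPKM in NFF and 176 to 232 RPKM in Control. By limma 6 of 6 tested fell in SFB against NFF, where 4.2% of all tested genes did. Paneth markers summed to 304 to 9348 RPKM in SFB, 8023 to 12960 RPKM in NFF and 9601 to 17630 RPKM in Control. The 304 was SFB 2, and the next SFB library, SFB 4, had 4760 RPKM. Goblet markers summed to 3632 to 8453 RPKM in SFB, 6035 to 15860 RPKM in NFF and 7629 to 11490 RPKM in Control. Enteroendocrine markers summed to 152 to 431 RPKM in SFB, 474 to 1732 RPKM in NFF and 345 to 1792 RPKM in Control. By limma 1 of 6 Paneth, 0 of 7 goblet and 2 of 7 enteroendocrine markers were called lower in SFB against NFF.

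Outside the 10 genes, 65 further genes of the route were listed and 63 tested. In SFB against NFF 4 of the 63 (6.35%) were called, all lower in SFB, beside 7.34% of all tested genes called and 4.2% called lower, and in SFB against Control and in NFF against Control 0 were, with 7 and 4 at an unadjusted p under 0.05. Of 19 genes of triglyceride synthesis and lipid droplets 2 were called lower in SFB than in NFF. Mgll, a lipase for monoacylglycerol, stood at 0.879, 1.54, 1.21 and 0.470 RPKM in SFB 1 to 4, against 3.13, 3.73, 3.05 and 7.32 RPKM in NFF 1 to 4 (log2 fold change -1.35 ± 0.25 SE, adjusted p = 0.0099 by limma). Plin2, a coat protein of lipid droplets, stood at 7.93 to 13.5 RPKM in SFB, against 15.5 to 20.3 RPKM in NFF (-0.61, limma adjusted p = 0.042). The call of Plin2 was lost without SFB 1, SFB 2, SFB 3, any of the 4 NFF libraries or Control 5, with values from -0.68 to -0.45.

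Of 15 transcription factors of enterocyte lipid genes 2 were called lower in SFB than in NFF. Ppara, a fatty acid sensor that drives lipid catabolism, stood at 6.04, 4.93, 5.25 and 5.19 RPKM in SFB 1 to 4, against 8.43, 10.2, 9.06 and 7.09 RPKM in NFF 1 to 4 (log2 fold change -0.60 ± 0.12 SE; limma adjusted p = 0.013). The value was -0.53 and uncalled without NFF 2 (limma adjusted p = 0.054). Nr1h3, the oxysterol receptor LXR alpha, stood at 10.8 to 15.0 RPKM in SFB, against 15.4 to 18.8 RPKM in NFF (-0.46; limma adjusted p = 0.046). Its call was lost without SFB 1, SFB 3, SFB 4, any of the 4 NFF libraries or Control 5. In Control, Ppara stood at 5.69 to 6.70 RPKM, which overlapped SFB and was below every NFF library. NFF lay wholly above Control for 5.35% of all tested genes. Ppara was not called in NFF against Control (0.44, limma adjusted p = 0.715) or in SFB against Control (-0.16, limma adjusted p = 0.672). Nr1h3 stood at 13.5 to 16.2 RPKM in Control, overlapping both groups, with -0.25 in SFB against Control (limma adjusted p = 0.490). The libraries of Mgll, Plin2, Ppara and Nr1h3 overlapped in none of these SFB and NFF comparisons.

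Of 13 genes of uptake and fatty acid activation and 16 of chylomicron assembly and secretion none was called in any comparison. Abca1, which exports cholesterol across the basolateral membrane, stood at 5.12, 5.26, 4.53 and 0.999 RPKM in SFB 1 to 4, at 9.27, 5.45, 7.31 and 3.96 RPKM in NFF 1 to 4, and at 1.85, 2.02 and 2.24 RPKM in Control 2, 4 and 5. All NFF libraries lay above all Control libraries, as they did for 5.35% of all tested genes, but the difference of 1.25 ± 0.37 (log2, SE) was not called (adjusted p = 0.715 by limma). Slc27a2, a very-long-chain acyl-CoA synthetase, had -0.84 in SFB against Control (limma adjusted p = 0.331) and -0.35 without Control 2, and Scp2, a sterol carrier protein, -0.48 in SFB against NFF (0.126). Abcg5, a subunit of a sterol exporter, had 0.35 in NFF against Control (0.896), and Acsl1, another acyl-CoA synthetase, -0.44 in SFB against Control (0.353) and -0.21 without Control 2.

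In the secretion list the lowest unadjusted p belonged to Sec23b, a coat protein of vesicles that leave the endoplasmic reticulum, with 0.39 in SFB against NFF (limma adjusted p = 0.073). Pla2g12b, needed for lipoprotein expansion, had -0.45 there (0.172) and -0.25 without SFB 4. Mia3, a cargo receptor for large particles, and Surf4, a cargo receptor of apolipoproteins, had 0.23 and -0.21 in NFF against Control (both 0.896), and Apobec1, the editor of Apob mRNA, had -0.35 in SFB against Control (0.529) and -0.17 without Control 2. Agpat2 and Agpat1, which make phosphatidic acid, had 0.48 and -0.30 in NFF against Control (both 0.896), and Agpat1 had -0.18 without Control 2. Gata4, a factor of proximal identity, had -0.63 in NFF against Control (0.896) and -0.26 without Control 2. In SFB against Control its close relative Gata6 and the adipogenic receptor Pparg had -0.35 and -0.44 (0.372 and 0.366), and without Control 2 they had -0.19 and -0.22.

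The 3 most variable genes were set beside the genes of most similar profile, by the root mean square difference of log2(RPKM + 1) over the 11 libraries after each gene was centred on its own mean. Nearest to Apoc3 was Creb3l3, a transcription factor of the endoplasmic reticulum membrane known for its part in lipoprotein gene expression, with a difference of 0.28. It stood at 35.2, 34.2, 22.9 and 4.76 RPKM in SFB 1 to 4, at 57.7, 53.0, 52.0 and 74.6 RPKM in NFF 1 to 4, and at 107, 16.1 and 28.3 RPKM in Control 2, 4 and 5. Leap2, a liver and gut peptide that blocks the ghrelin receptor, followed at 0.35 and Slc5a4a, a member of the sodium-glucose transporter family, at 0.42.

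Nearest to Apoa4 was Rbp2, which carries retinol in enterocytes, with a difference of 0.57. It stood at 109, 90.7, 65.9 and 15.8 RPKM in SFB 1 to 4, at 81.9, 72.6, 84.6 and 124 RPKM in NFF 1 to 4, and at 688, 34.2 and 64.0 RPKM in Control 2, 4 and 5. The alcohol dehydrogenase gene Adh6a, a proximal marker, was at 0.72 and the glutathione peroxidase gene Gpx3 at 0.73. Nearest to Fabp1 were Adh1 at 0.64, Gpx3 at 0.66 and the kinase gene Matk at 0.66. All of these profiles share the high value of Control 2 and the low value of SFB 4, from the same libraries.

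**Figure D5:**
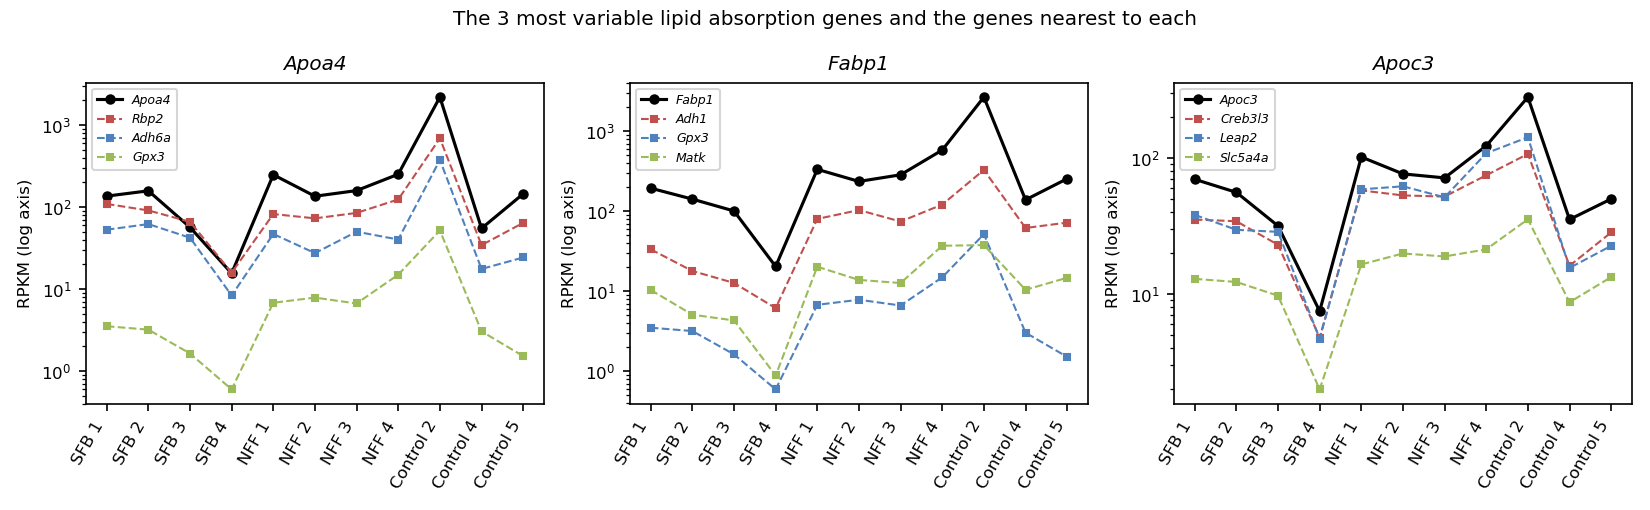
RPKM (log axes) of Apoa4, Fabp1 and Apoc3 (black) and of the 3 genes with the most similar profile to each (coloured, dashed) in the 11 libraries along the horizontal axis. Each of the 12 lines has its lowest point at SFB 4 and its highest at Control 2.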

How the data were processed

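The authors deposited 1 table of RPKM values, read here per the file headers, for 11366 genes in 11 libraries. Per the labels' protocols, full-length cDNA was made with SMART-seq v4 and libraries with NexteraXT, kits that add no molecular identifiers. The submitters' processing notes name STAR and the build mm10. Not given in the sources used here are the counting tool, gene lengths, scaling total and rule of detection. RPKM sums were 237248 to 302661 per library, and whole reads were not recovered from the low values, so depth is unknown and no counting interval is given. Of the symbols, 15 that had become dates were restored through their Entrez identifiers.

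RPKM values are not counts, so log2(RPKM + 1) was analysed with limma 3.58.1 in R 4.3.3. Genes with at least 1 RPKM in at least 3 libraries were tested (10482 of 11366), with 1 mean per group, 8 residual degrees of freedom, eBayes with a trend and a threshold of 0.05 on the Benjamini-Hochberg adjusted p. The fit was tested on simulated data, in which the spread of the most variable genes was capped and no library was set apart. Power for genes as variable as Fabp1, Apoa4 and Apoc3 was therefore not tested. Alternatives changed the pseudocount, the filter, the scaling, the moderation, library weights, the groups fitted, the replicate block and the libraries; leaving out Control 2 and SFB 4 together was added after seeing the data. Marker and pathway lists are described by counts and sums. Named pathway genes were the called genes of each list or, where a list had none in a comparison, its 2 of lowest unadjusted p. The genes and lists were chosen with earlier results of these data known. Coordinates are from GENCODE M21 on GRCm38, the assembly mm10 names.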

Additional observations from a re-analysis of the deposited data

Results flagged for a closer look

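In groups of 4 libraries, a library was marked where its gap to the nearest other library, as a share of the group's range on the log2(RPKM + 1) scale, was above Dixon's critical value for 4 samples. The Control group, with 3 libraries, was not examined in this way. Among 58 gene and group combinations 5 were marked, and chance marks about 1 in 20 of independent ones. The combinations share the same libraries, so 1 library can mark many genes and that rate is no yardstick here. All 5 marks were in SFB 4. The share was 0.937 for Cd36 (0.615 RPKM), 0.911 for Fabp2 (711 RPKM) and 0.872 for Apoa1 (439 RPKM). For Abca1 (0.999 RPKM) it was 0.890. Slc27a2 was marked at 0.854, where SFB 4 was the high library of its group (14.8 RPKM).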

How the results depend on the processing

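The 10 genes had 0 calls in all 3 comparisons under every alternative but 1, except that Cd36 was not tested with a filter of 5 RPKM, which left 9 of them. Without Control 2 and SFB 4 together, added after seeing the data, 1 was called in SFB against NFF (Fabp1), and genes called over the whole table were 1255 in SFB against NFF, 183 in SFB against Control and 44 in NFF against Control, where all libraries gave 769 in SFB against NFF, 21 in SFB against Control and 0 in NFF against Control (505 at an unadjusted p under 0.05 by limma). Log2 fold changes that turned sign in that fit were, in SFB against NFF, Fabp2 0.095, Mogat2 0.049 and Npc1l1 0.099; in SFB against Control, Fabp2 0.61, Mogat2 0.36, Apoa1 0.64, Apoa4 0.26 and Apoc3 0.24; and in NFF against Control, Cd36 0.065, Fabp1 0.84, Mttp 0.14 and Apoa4 1.09. Array weights gave 3017 calls in SFB against NFF, 333 in SFB against Control and 4 in NFF against Control, with Fabp2 0.12, Mogat2 0.053 and Npc1l1 0.14 in SFB against NFF, Fabp2 0.44, Mogat2 0.28, Apoa1 0.42 and Apoc3 0.084 in SFB against Control, and Fabp1 0.022, Mttp 0.059 and Apoa4 0.14 in NFF against Control. Quantile normalization gave 1196 calls in SFB against NFF and turned Fabp2 (0.59), Mogat2 (0.11) and Apoa1 (0.19) in SFB against Control. Fitting only the groups compared left 1 call in SFB against Control and 1 in NFF against Control. With the replicate block, calls were 335 in SFB against NFF and 0 in SFB against Control, with Mttp -0.22 in SFB against Control and Apoc3 -0.38 and Mogat2 -0.0060 in NFF against Control. The block ended the calls of Plin2, Ppara and Nr1h3 in SFB against NFF (adjusted p = 0.101, 0.057 and 0.108 by limma). Whether the numbers pair the samples is not known. Over 8 same-numbered pairs the correlation of deviations ran from -0.30 to 0.67, with 2 over 0.1. The highest, SFB 4 with Control 4, was also the highest of all pairs between groups. Of 11 libraries 3 correlated best with their own number, and with 3 or 4 libraries a group this cannot decide the question. Leaving out 1 library at a time gave 240 (without NFF 2) to 994 calls in SFB against NFF, 7 (without SFB 2) to 94 (without SFB 4) in SFB against Control and 0 to 8 (without SFB 4) in NFF against Control. In these fits the log2 fold changes that turned sign in SFB against NFF ranged from -0.28 to 0.099 for Npc1l1, -0.54 to 0.095 for Fabp2 and -0.42 to 0.049 for Mogat2. In SFB against Control they ranged from -0.10 to 0.35 for Npc1l1, -0.20 to 0.46 for Fabp2, -0.29 to 0.18 for Mogat2, -0.22 to 0.34 for Mttp, -0.060 to 0.52 for Apob and -0.49 to 0.36 for Apoa1. In NFF against Control they ranged from -0.77 to 0.065 for Cd36, -1.29 to 0.84 for Fabp1, -0.0099 to 0.31 for Mogat2, -0.42 to 0.14 for Mttp, -1.56 to 1.09 for Apoa4 and -0.38 to 1.10 for Apoc3. Nr1h3 also lost its call with median ratio scaling, quantile normalization, no trend and only the groups compared, and Mgll was not tested with the filter of 5 RPKM either. The cause of these shifts was not tested. Depth is unknown, so no limit from counting can be given, and intervals rest on 3 or 4 libraries a group.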
